A study of Homo sapiens with 2 samples.

Results

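The IRF and STAT transcription factors considered here are 8 genes taken by name: IRF1, IRF2, IRF3, IRF7, IRF9, STAT2, STAT3 and STAT6. Every probe set annotated to 1 of these genes alone was used, which gave 12 probe sets of 54675 on the array, for 7 of the 8 genes. STAT2 had no such probe set and is not analysed here. The rule uses gene names and no measured value, but the genes were listed with earlier results of these data known.

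The samples were 2 cultures of HCT116, an established human colorectal carcinoma line kept in RPMI-1640 medium. HCT116-CPEB4 was labelled as over-expressing CPEB4 from a lentiviral vector, and HCT116-GFP, which it was set against, as wild type. CPEB4 binds cytoplasmic polyadenylation elements in mRNA and regulates poly(A) tails and translation, and the comparison asks which transcripts differ when it is over-expressed. Whether HCT116-GFP cells carried a vector, and whether either line was 1 clone, was not given in the sources used. Total RNA of each culture was read on 1 biotin-labelled array, so no difference below has a replicate check and no p-value was computed.

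IRF proteins bind DNA through a conserved winged-helix domain and recognise the interferon-stimulated response element, a repeat of GAAA. IRF3 and IRF7 lie in the cytoplasm until kinases downstream of nucleic acid sensors phosphorylate them, and they then switch on interferon genes. Secreted interferon acts through JAK kinases, which phosphorylate STAT proteins on tyrosine. IRF9 joins STAT2 and a partner STAT to form ISGF3, the complex that activates most type I and type III interferon-stimulated genes. Other STAT dimers bind the gamma-activated site, a palindrome of TTC and GAA. In gut epithelium STAT3 is best known as the effector of the interleukin-6 and interleukin-22 families, and STAT6 as that of interleukin-4 and interleukin-13. Arrays read mRNA, so phosphorylation, which sets the activity of most of these proteins, was not measured.

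Promoter sequence was available for 5 of the 8 genes (RefSeq, GRCh38.p14, from 250 bases before to 50 after the transcription start). The windows were searched on either strand for the response element core GAAANNGAAA and the gamma-activated site TTCNNNGAA. The gamma-activated site was found in 2 of the 5, IRF1 and IRF9, and in 8.41% of the 11041 genes past the dim filter that have a promoter. The response element core was found in 0 of the 5 and in 3.92% of those genes. IRF2, IRF3 and IRF7 are named only. The 250 bases upstream of IRF1 and IRF9 are shown because these are the members with a match, which is in capitals. The IRF1 site lies 124 to 116 bases before the start, and the IRF9 site 63 to 55 bases before it. IRF1 is on the minus strand at chr5:132490774-132491023 and IRF9 on the plus strand at chr14:24161015-24161264.
IRF1: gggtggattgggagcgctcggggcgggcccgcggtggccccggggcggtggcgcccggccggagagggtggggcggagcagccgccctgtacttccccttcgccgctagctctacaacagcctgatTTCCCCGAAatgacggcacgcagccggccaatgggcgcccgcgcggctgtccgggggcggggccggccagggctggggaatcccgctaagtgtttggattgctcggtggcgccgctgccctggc
IRF9: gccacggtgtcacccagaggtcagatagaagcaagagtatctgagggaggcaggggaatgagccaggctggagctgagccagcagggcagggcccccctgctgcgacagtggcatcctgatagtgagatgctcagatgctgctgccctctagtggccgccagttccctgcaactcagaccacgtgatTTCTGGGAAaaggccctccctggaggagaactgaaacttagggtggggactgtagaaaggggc
A match describes the letters and not a bound site, and a window without one says nothing of the factor.

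The arrays had median intensities of 61.1 for HCT116-CPEB4 and 60.6 for HCT116-GFP. CPEB4 itself was no higher on the array labelled HCT116-CPEB4, where its 4 probe sets read 628, 558, 174 and 21.0, against 731, 758, 183 and 60.1 on the HCT116-GFP array. Where these probe sets lie in the transcript is not known here, so they may not read an introduced coding sequence. Directions below therefore rest on the labels, and the sample with the CPEB4 label is called the CPEB4-labelled array. The epithelial markers EPCAM and KRT18 read 20717 and 28606 on the CPEB4-labelled array, against 20994 and 27353 on the HCT116-GFP array. Over the 9 epithelial markers measured, 6 lay above 0 and 3 below at the brightest probe set. They ran from CDH1 at 2954 against 3709 (−0.33) to VIL1 at 77.0 against 32.2 (1.26), the second value below the dim filter. Kept probe sets of VIL1 ran from −5.60 to 1.26, so its direction is not settled, and those of KRT19 from −0.01 to 1.69. CDX2, which specifies intestinal identity, read 119.7 against 102.9. Of 12 blood and immune markers with a probe set, 3 passed the dim filter, with summed intensities of 317 against 388. PTPRC, CD3E and CD14 were among those below it on both arrays. Of 8 fibroblast markers 3 passed, with sums of 1705 against 1315. COL1A1 read 1292 against 949 (0.45), but its kept probe sets ran from −3.05 to 0.63, so its direction is not settled. DCN read 102 against 43.2 (1.23), the second value below the filter, and FBLN1 311 against 323 (−0.06). PECAM1 (−0.66) was the 1 of 6 endothelial markers to pass, at 95.0 against 149.8. The 3′ to 5′ signal ratio of ACTB, which grows as RNA degrades, was 10.3 against 8.23. That of GAPDH was near 1 on both arrays, at 1.04 on the CPEB4-labelled array and 0.99 on the HCT116-GFP array. The part of these markers and of these ratios in the results was not tested.

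A probe set was kept if it reached 60.8, the median of all values, on at least 1 array (the dim filter). Among probe sets annotated to 1 gene this left 25010, for 13704 genes, and it kept 11 of the 12 IRF and STAT probe sets. Each difference is the log2 intensity on the CPEB4-labelled array less that on the HCT116-GFP array. Over all kept genes they had a median of 0.00 and quartiles of −0.23 and 0.22. Where a gene has several kept probe sets, its gene value is that of the brightest. Each member is also placed among the 1000 kept probe sets closest to it in mean log2 intensity, as a description of its rank. The spread of these neighbours holds both array noise and real differences between the cultures, which 1 array per line cannot separate.

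IRF7, IRF9 and 1 of the IRF1 probe sets had the largest differences among the kept probe sets, and all were higher on the CPEB4-labelled array. IRF2 and, at its brightest probe set, STAT3 were lower by small amounts, STAT6 was higher by a small amount, and IRF3 read nearly the same. Of the 11 kept probe sets, 7 lay above 0 and 4 below, against 50.4% above 0 over all kept probe sets. A change of size 2-fold, used as a plain cutoff without any test, was reached upwards by 1 of 11 (4.6% of all kept probe sets) and downwards by 0 of 11 (4.48%). By gene, 1 of 7 was higher by 2-fold (3.55% of all kept genes) and 0 of 7 lower (3.85%). At 1.5-fold, 3 of 11 probe sets were higher (10.2%) and 0 lower (9.46%), and by gene 2 of 7 were higher (8.22%) and 0 lower (8.3%). With so few members, 1 probe set more or less moves these shares a great deal.

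**Figure D1:**
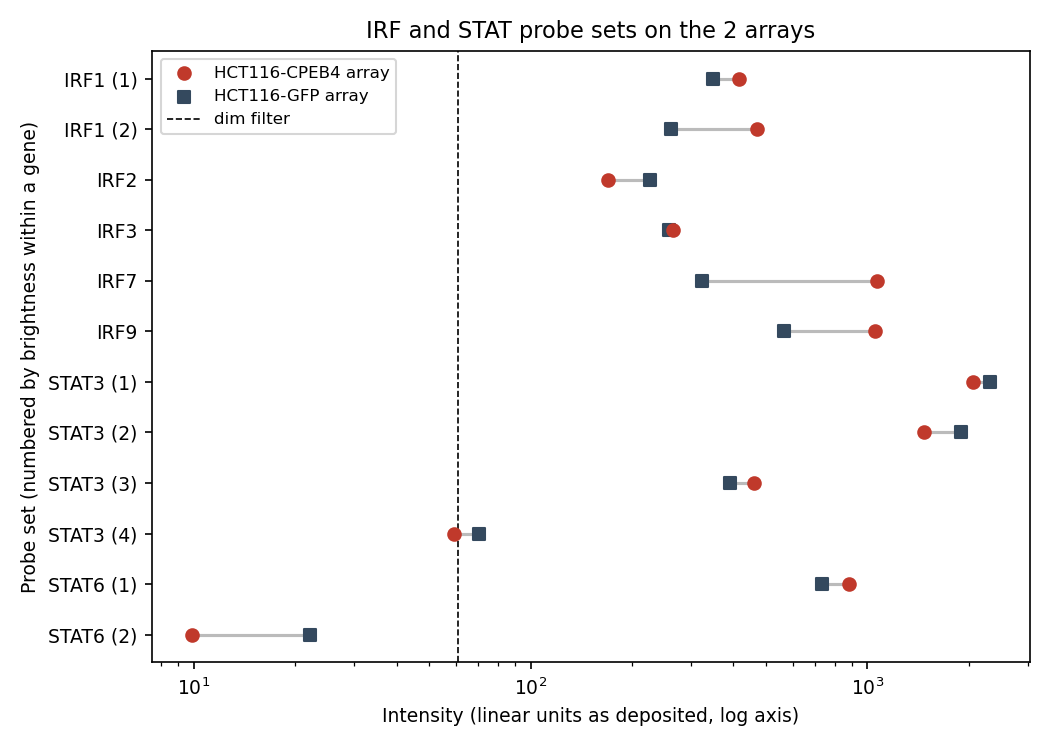
Intensity of each IRF and STAT probe set on the CPEB4-labelled array (circles) and the HCT116-GFP array (squares), on a log axis, with 1 array for each line and no error bar. IRF7 shows the widest gap of the probe sets above the dim filter (dashed line), at 1071 against 323.

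IRF7, the factor that drives most interferon-alpha genes and is itself induced by interferon, read 1071 on the CPEB4-labelled array and 323 on the HCT116-GFP array. The difference was 1.73, or 3.32-fold. It lay at percentile 99.9 of the 1000 probe sets of like brightness, whose central 95% ran from −0.59 to 0.64. This value rests on 1 probe set, whose identifier carries the suffix _s_at for probes that can read several transcripts.

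IRF3, which shares upstream kinases with IRF7 but is made constitutively in most cells, read 264 on the CPEB4-labelled array and 257 on the HCT116-GFP array. Its difference of 0.04 stood at percentile 52.4 of probe sets of like brightness, near the middle. The readings of the pair were thus unlike, with IRF7 above the central 95% of its neighbours and IRF3 inside (−0.73 to 0.82). With 1 array per line, whether the genes differ in this way was not tested. Both readings of IRF3 come from 1 probe set.

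IRF9, the DNA-binding subunit of ISGF3, read 1052 on the CPEB4-labelled array and 566 on the HCT116-GFP array. Its difference of 0.89 (1.86-fold) did not reach the 2-fold rule but lay at percentile 99.2 of its 1000 neighbours. A further probe set is annotated to IRF9 and RNF31 together and was therefore no member. It read 437 against 282, a difference of 0.64. The kept probe set of RNF31 alone read 78.2 against 65.1, a difference of 0.26, and its other probe set was below the dim filter on both arrays.

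IRF1 activates and IRF2 mostly represses through the same response element, and the pair lay on opposite sides of 0. The brighter IRF1 probe set read 414 on the CPEB4-labelled array and 348 on the HCT116-GFP array, a difference of 0.25 at percentile 74.9 of its neighbours. The other IRF1 probe set read 469 and 261, a difference of 0.85 at percentile 98.7. Both were higher on the CPEB4-labelled array, but by amounts 0.60 apart, and their mean was 0.55. For comparison, the 2 brightest kept probe sets of a gene differed by a median of 0.27 over 6520 genes. IRF2 read 169.6 on the CPEB4-labelled array and 226 on the HCT116-GFP array, a difference of −0.42 at percentile 15.5, inside the central 95% of its neighbours.

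**Figure D2:**
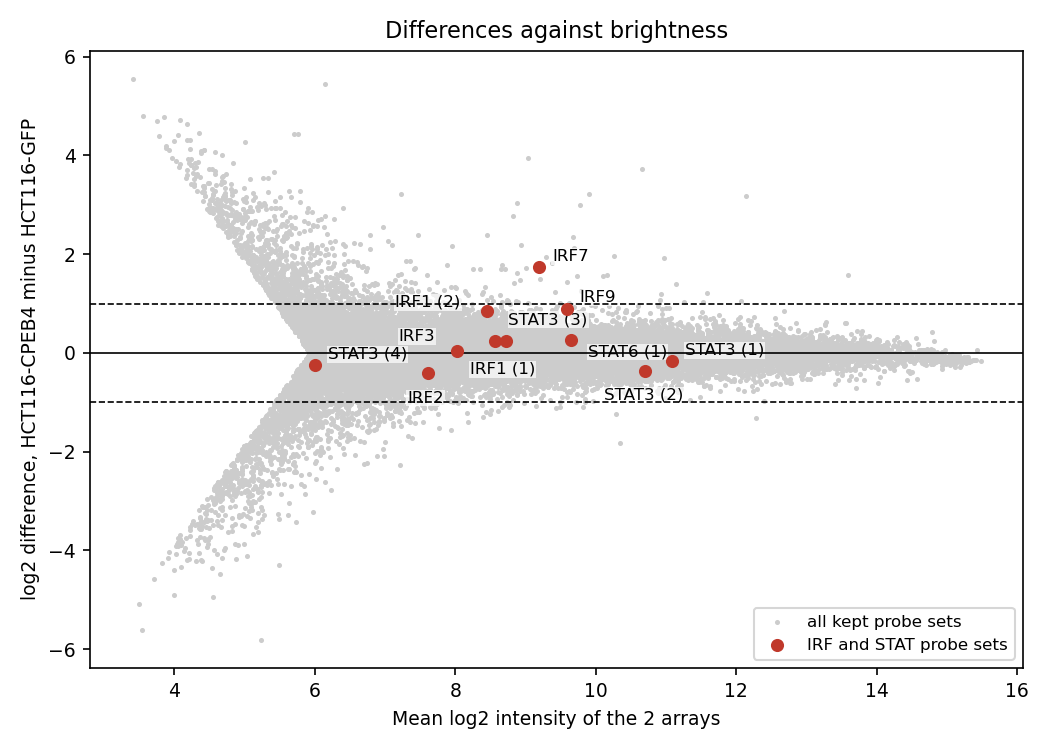
The log2 difference of each kept probe set, HCT116-CPEB4 minus HCT116-GFP, against its mean log2 intensity over the arrays, with IRF and STAT probe sets in red and dashed lines at 2-fold. IRF7 (1.73), IRF9 (0.89) and the second IRF1 probe set (0.85) stand at or above the upper edge of the probe sets of like brightness, and the other members lie within the band.

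STAT3, the effector of interleukin-6 type cytokines, had 4 probe sets that did not share a direction. The brightest read 2062 on the CPEB4-labelled array and 2309 on the HCT116-GFP array (−0.16). The next read 1477 and 1890.5 (−0.36). Another read 461 and 389.9 (0.24), and the dimmest read 59.1 and 70.2 (−0.25). These stood at percentiles 28.2, 9.5, 75.2 and 37 of probe sets of like brightness, so each was inside the central 95%, and the direction of STAT3 is not settled.

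STAT6, which carries interleukin-4 and interleukin-13 signals, read 882 on the CPEB4-labelled array and 733 on the HCT116-GFP array at its brighter probe set. The difference was 0.27, at percentile 82.7. Its second probe set read 9.90 and 22.2, below the dim filter on both arrays. The difference there was −1.17, and values this dim are noisy on a ratio scale, so it was left out of the counts.

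Of the other genes in these families, 5 had a kept probe set. STAT4 read 492 on the CPEB4-labelled array and 344 on the HCT116-GFP array (0.51). STAT5A read 120.03 against 15.7 (2.94), with the second value far below the dim filter, so the size of that difference is poorly measured. STAT5B read 144 against 148 (−0.03) at its 1 kept probe set. IRF5 read 320.1 against 289 (0.15) at its brightest probe set and 138 against 192 (−0.48) at its next, so its direction is not settled. IRF4, a lymphoid factor, read 111 against 91.5 (0.28). IRF8, known from myeloid cells, read 28.9 against 60.6, below the dim filter on either array.

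The receptors and JAK kinases that act on STATs had a median difference of −0.13 over 18 genes, with 7 above 0 and 11 below, against 50.1% of all kept genes above 0. None was higher by 2-fold (3.55% of all kept genes) and 1 was lower by that amount (3.85%). This was JAK3, the kinase of the common gamma chain receptors, at 101 on the CPEB4-labelled array and 264 on the HCT116-GFP array. Its other kept probe set went the other way, with a difference of 0.68. The interleukin-22 receptor subunit IL22RA1 read 218 against 116 (0.91), and IL20RA 71.5 against 37.2 (0.94), the second value below the dim filter. The brightest of the list, IFNGR1, which binds interferon-gamma, read 3281 against 3565 (−0.12).

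Adaptors and kinases that lead to IRF3 and IRF7 had a median of 0.33 over 15 genes. Of these, 13 lay above 0, against 50.1% of all kept genes. By 2-fold or more 2 were higher (3.55% of all kept genes) and 0 lower (3.85%). IFIH1 and RIGI of this list are also in the list of ISGF3 targets given below. The 2 genes below 0 were AZI2 and TICAM1. The RNA sensor IFIH1 read 2469.6 on the CPEB4-labelled array and 309 on the HCT116-GFP array, and its other kept probe set differed by 1.83. TLR3, an endosomal sensor of double-stranded RNA, read 229 against 53.4 (2.10), the second value below the dim filter. Its other kept probe set differed by 0.35. IKBKE, a kinase of IRF3 and IRF7, read 195 against 99.0 (0.98), and its other kept probe set differed by 1.55. The scaffold TANK, the brightest, read 4608 on either array, and its probe sets ran from −0.27 to 0.66.

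Inhibitors of these pathways and nuclear partners showed medians of 0.00 over 22 genes and 0.01 over 17. That of the partners was −0.062 when probe sets were averaged. Of the inhibitors 11 lay above 0 and 11 below, and of the partners 9 and 8, against 50.1% of all kept genes above 0. By 2-fold or more, 0 inhibitors and 1 partner, IFI35, were higher (3.55% of all kept genes) and 0 of either lower (3.85%). The lowest inhibitor value was that of SOCS7 (−0.47), with probe sets up to 0.17. USP18, which restrains the interferon receptor, read 408 on the CPEB4-labelled array and 235 on the HCT116-GFP array (0.80). It is also in the list of ISGF3 targets. IRF2BP1, a corepressor that binds IRF2, read 108 against 68.7 (0.65), and RBCK1 read 6136 against 4374 (0.49). The phosphatase PTPN11 read 12488 against 13352 (−0.10), with probe sets up to 0.46. Among the partners, the interferon-induced pair IFI35 and NMI, which bind each other, differed by 1.05 and 0.54. The importin KPNA1, which carries STAT proteins into the nucleus, differed by 0.44 with probe sets from −0.17 to 0.52, and the deacetylase HDAC1 by 0.01.

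**Figure D3:**
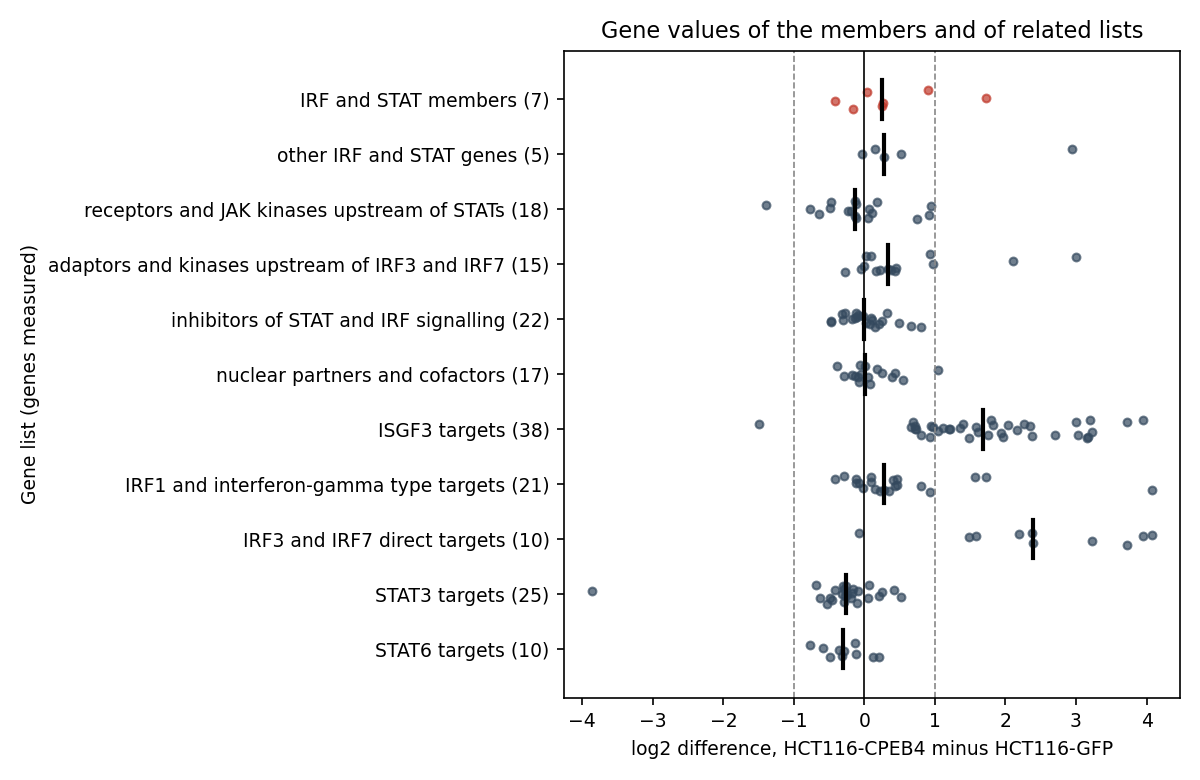
Gene values of the IRF and STAT members (red) and of related lists (dark), as log2 differences of HCT116-CPEB4 minus HCT116-GFP. Each point is a gene, the black bar is the list median, and dashed lines mark 2-fold. The ISGF3 list has its median at 1.68 and that of IRF3 and IRF7 targets at 2.39, while the STAT3 and STAT6 target lists have medians of −0.27 and −0.30.

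The lists of known targets of the different factors had unlike medians, and some genes are in more than 1 list. Which factor acted on these genes was not tested. Targets of ISGF3 had a median of 1.68 over 38 genes, with 37 above 0, against 50.1% of all kept genes. Of these 38, 28 were higher by 2-fold or more (3.55% of all kept genes) and 1, OAS2, was lower (3.85%). At 9 of the 38 an array was below the dim filter. For OAS2 this was the CPEB4-labelled array. For MX1, OAS1, IFI44, RSAD2, XAF1, PARP10, SAMD9L and TRIM22 it was the HCT116-GFP array. These passed the filter on the CPEB4-labelled array alone, and all but SAMD9L are among the 28. Kept probe sets of PARP10 ran from −2.75 to 3.15, and those of PARP14 from −0.51 to 1.61. IFIT3 read 2063 on the CPEB4-labelled array and 133 on the HCT116-GFP array (3.95, and 1.78 at the remaining probe set), and IFIT1 5865 against 444 (3.72). OASL read 2938 against 315 (3.22), and ISG15, the brightest, 21379 against 7152 (1.58).

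Direct targets of IRF3 and IRF7 had a median of 2.39 over 10 genes, 9 of them higher by 2-fold or more (3.55% of all kept genes). At 2 of these, CXCL10 and IFNL1, the HCT116-GFP value was below the dim filter, so they passed it on the CPEB4-labelled array alone. The exception was PMAIP1 (−0.08), a pro-apoptotic BH3 protein. Of the 10, 5 are also in the ISGF3 list, and the other 5 had a median of 2.19. The chemokine CXCL10 read 97.7 against 5.80, and the antiviral cytokine IFNL1 147 against 52.7.

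Targets of IRF1 and of interferon-gamma type signalling had a smaller median of 0.28 over 21 genes. Of these, 15 lay above 0 (50.1% of all kept genes), 3 were higher by 2-fold (3.55%) and 0 lower (3.85%). At 3 of the 21, CXCL10, GBP3 and CIITA, the HCT116-GFP value was below the dim filter, so they passed it on the CPEB4-labelled array alone. The median was 0.44 without _x_at and _s_at probe sets. The 3 higher by 2-fold were CXCL10, GBP3 and NLRC5, the activator of class I genes. GBP3 read 137 against 41.5 (1.72, the second value below the dim filter) and NLRC5 251 against 84.8 (1.57). B2M, the light chain of class I molecules and the brightest, read 27754 against 28167 (−0.02), and its probe sets ran up to 0.95.

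Targets of STAT3 had a median of −0.27 over 25 genes, with 6 above 0 and 19 below, against 50.1% of all kept genes above 0. By 2-fold or more 0 were higher (3.55% of all kept genes) and 1, SBNO2, was lower (3.85%). The CCAAT factor CEBPD read 449 on the CPEB4-labelled array and 723 on the HCT116-GFP array (−0.69), and the immediate early gene FOS 237 against 366 (−0.63). SBNO2 read 5.32 against 77.3, the first value far below the dim filter. IER3, the brightest, read 19669 against 23647 (−0.27). Targets of STAT6 had a median of −0.30 over 10 genes, with 2 above 0, CISH (0.20, with probe sets from −0.31 to 4.46) and CDH26 (0.12). That median was −0.17 when probe sets were averaged. CCL26 read 108 against 162 (−0.59), SERPINB3 48.9 against 83.7 (−0.78, the first below the dim filter), TGM2 270.2 against 380.2 (−0.49, with a probe set at 1.31) and SOCS2 2156 against 2682 (−0.31). None of the 10 was higher by 2-fold (3.55% of all kept genes) or lower by that amount (3.85%).

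The promoters of all listed targets were searched for the same motifs, including targets with no kept probe set. These sets are therefore not the measured genes counted above, and they differ from the comparison set, which holds only genes past the dim filter. Over all 27305 genes with a RefSeq promoter, the shares were 4.38% for the response element core and 9.38% for the gamma-activated site. The response element core was found in 25 of the 33 ISGF3 targets with a promoter, against 3.92% of genes past the dim filter. It was also in 14 of 18 IRF1 and interferon-gamma type targets, and in 7 of 9 targets of IRF3 and IRF7. It was found in 0 of 20 STAT3 targets and 3 of 12 STAT6 targets. The gamma-activated site was in 9 of the 33 ISGF3 targets and in 7 of the 18 IRF1 and interferon-gamma type targets, against 8.41%. It was in 1 of the 9 of IRF3 and IRF7, in 4 of the 12 STAT6 targets and in 1 of the 20 STAT3 targets. In 4 of the ISGF3 targets the motifs overlap. The matches of the named ISGF3 targets are shown with 8 bases on each side and the core in capitals. It reads as TTTC where the match is on the opposite strand. IFIT1 and IFIT3 are on chromosome 10 and ISG15 on chromosome 1, each on the plus strand of GRCh38.p14. IFIT3 has 2 start sites in RefSeq, each with 2 matches, and OASL is named only.
IFIT1 chr10:89392499-89392524: agctttagTTTCACTTTCccctttcg
IFIT1 chr10:89392512-89392537: ctttccccTTTCGGTTTCcctaggtt
IFIT3 chr10:89327833-89327858: ccgttaggTTTCATTTTCctcctccc
IFIT3 chr10:89327867-89327892: taaattagTTTCACTTTCcagtttcc
IFIT3 chr10:89332427-89332452: agattctgTTTCAGTTTCccctcaag
IFIT3 chr10:89332470-89332495: tccatcagTTTCACTTTCctttcccc
ISG15 chr1:1013376-1013401: tgcctcggGAAAGGGAAAccgaaact
ISG15 chr1:1013382-1013407: gggaaaggGAAACCGAAActgaagcc

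The value of IRF1 moved most with the processing, to 0.55 with the mean over its probe sets against 0.25 as reported. Over quantile normalization, loess and centring, IRF7 ran from 1.72 to 1.73, IRF1 from 0.22 to 0.25 and IRF2 from −0.44 to −0.42. No member gene value changed sign in the alternatives in which it could be measured. Part of this was fixed in advance. IRF2, IRF3, IRF7, IRF9 and STAT6 have 1 kept probe set each, so averaging could not change their values. A gene value is that of the brightest probe set, so lifting the dim filter left each member at its reported value. IRF7 has no value once probe sets with the suffixes _s_at and _x_at are left out, and then 0 of 5 measured member genes were higher by 2-fold.

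**Figure D4:**
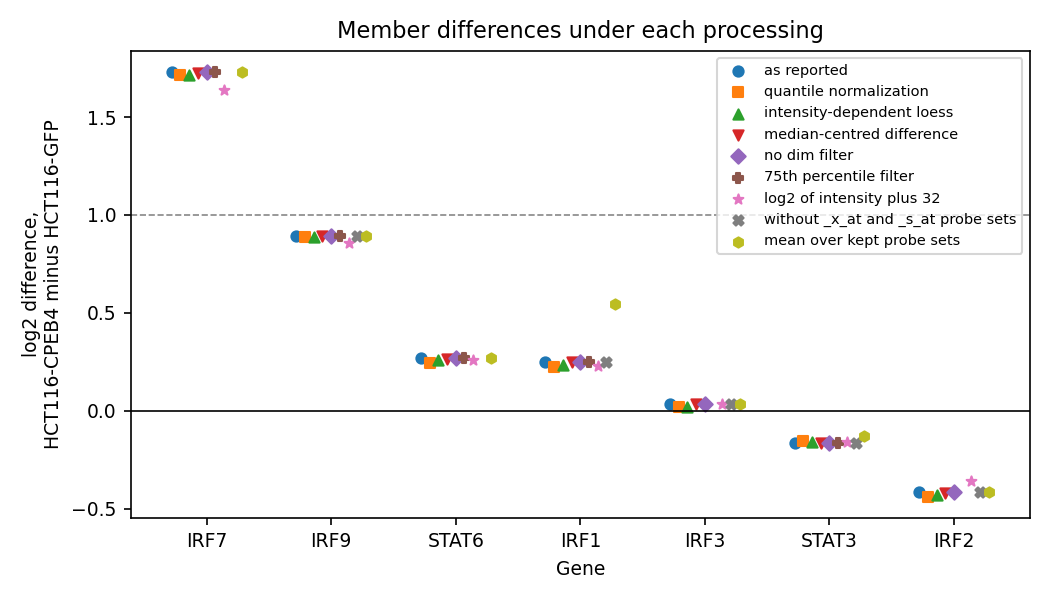
The log2 difference of each member gene, HCT116-CPEB4 minus HCT116-GFP, under the reported processing and each alternative, with a dashed line at 2-fold. No gene value crosses 0, and the largest shift is that of IRF1, at 0.55 with the mean over probe sets against 0.25. Only IRF1 and STAT3 have several kept probe sets to average.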

How the data were processed

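The authors' deposited table holds 1 linear intensity per probe set for each of the 2 arrays. Per the submitters' processing notes, Partek was used, with no version or step given. How probes were summarised, background-corrected and scaled was not stated. From the values, the trimmed mean (2% removed at each end) is 500.1 on both arrays. Detection calls were not used.

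Probe sets were named from a platform annotation and updated by Entrez identifier to RefSeq GRCh38.p14. Of 54675, 41097 have 1 gene, 1801 several and 11777 are unnamed here. The 62 control probe sets were left out. From the deposited intensity the log2 was taken without a pseudocount (Python 3.11.15, numpy 2.4.6, pandas 2.3.3), and loess came from statsmodels 0.14.6. Code was checked on simulated arrays.

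The members and gene lists were chosen with earlier results of these data known. Named genes are all members, the measured family genes, and from each list the 3 largest differences and the brightest. Other genes were named after their values were seen. With 1 array per line, the number of arrays limits the precision.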

Additional observations from a re-analysis of the deposited data

How the results depend on the processing

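No paired analysis was possible because each line has 1 array. A gene value is said to have shifted when it moved by 0.27 or more, the median gap between probe sets of a gene, and a list median by that gap over the root of its size. Without _x_at and _s_at probe sets, member probe sets and genes higher by 2-fold were 0 and 0, since IRF7 dropped out. At 1.5-fold they were 3 and 2. Without the dim filter 1 member probe set, of STAT6, was lower by 2-fold. The mean over probe sets gave 0.55 for IRF1. With 32 added to each intensity, the median was 1.38 for ISGF3 and 1.89 for IRF3 and IRF7 targets. The ISGF3 median was 1.59 without the dim filter, 1.61 without _x_at and _s_at probe sets and 1.58 when probe sets were averaged. Under the last pair, the median of IRF3 and IRF7 targets was 2.81 and 2.63. That of IRF1 and interferon-gamma type targets was 0.44 and 0.38 there. The STAT3 target median was −0.18 without _x_at and _s_at probe sets. When probe sets were averaged, the STAT6 targets had −0.17, the adaptors 0.22 and the nuclear partners −0.062, a turn of sign for the partners. The other IRF and STAT genes had 0.51 under the 75th percentile filter (377). The cause was not tested. All genes higher and lower by 2-fold numbered 487 and 527 as reported, 1761 and 1875 without the dim filter, 40 and 14 under the 75th percentile filter, and 281 and 292 with 32 added. Signal over background limits the dim genes, and a difference with an array below the dim filter is poorly measured.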
